A study of Mus musculus with 2 samples.

Results

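The let-7 microRNAs of the embryonic mouse limb were described from small RNA sequencing of 2 libraries of 1 group. The family was taken as the 10 genes Mirlet7a-1, Mirlet7a-2, Mirlet7b, Mirlet7c-1, Mirlet7c-2, Mirlet7d, Mirlet7f-2, Mirlet7g, Mirlet7i and Mir98, found by gene symbol among the 1973 microRNA genes of the count tables. A further 2 let-7 genes, Mirlet7e and Mirlet7f-1, were seen only as reads on the strand opposite to other annotated genes and are given apart. Both samples were limb tissue of B6NCrl embryos at 14.5 days, 4 limbs each, with the sex given as pooled, no treatment and no other genotype. The labels called them biological replicates 1 and 2, with different collection days but the same donor and pup label, so the spread between them may be in part technical. With 1 group there was no contrast between conditions, and the comparisons below are between genes, between copies, between neighbours at a locus and between the 2 libraries.

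MicroRNAs of the let-7 family are cut from hairpin precursors, first by Drosha in the nucleus and then by Dicer in the cytoplasm, and the mature strand guides Argonaute to mRNAs that pair with its seed, here bases 2 to 8. Known targets include the mRNAs of Hmga2, Lin28a, Lin28b and the Ras genes. The RNA-binding proteins Lin28a and Lin28b hold back let-7 processing in early embryonic cells, and mature let-7 accumulates as tissues differentiate. These mRNAs and proteins were not measured here.

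The 12 let-7 genes named above encode 9 different mature forms from the 5p arm of the hairpin. These are shown because the results turn on the seed they share and on the bases that separate them. All 12 hairpins were matched in the RefSeq microRNA table (GRCm38.p6). Sequences are 5′ to 3′ with the seed in capitals.
let-7a-5p (Mirlet7a-1 and Mirlet7a-2): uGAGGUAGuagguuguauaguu
let-7c-5p (Mirlet7c-1 and Mirlet7c-2): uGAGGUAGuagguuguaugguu
let-7f-5p (Mirlet7f-1 and Mirlet7f-2): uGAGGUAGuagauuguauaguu
let-7b-5p (Mirlet7b): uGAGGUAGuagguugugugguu
let-7d-5p (Mirlet7d): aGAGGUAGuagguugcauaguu
let-7e-5p (Mirlet7e): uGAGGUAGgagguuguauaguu
let-7g-5p (Mirlet7g): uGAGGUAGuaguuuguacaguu
let-7i-5p (Mirlet7i): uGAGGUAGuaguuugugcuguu
miR-98-5p (Mir98): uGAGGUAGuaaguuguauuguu

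Every form is 22 bases long and holds the seed GAGGUAG, so the forms differ only outside the seed. Against let-7a-5p, with positions counted from 1 at the 5′ end, let-7c carries A19G, let-7f G12A and let-7e U9G. A second group differs at 2 positions, namely let-7b with A17G and A19G, let-7d with U1A and U16C, let-7g with G12U and U18C, and miR-98 with G11A and A19U. The most distant form is let-7i, with 4 substitutions (G12U, A17G, U18C and A19U), and it is closest to let-7g, from which it differs at 2 bases. Besides these, 2 genes of the RefSeq microRNAs hold this seed at bases 2 to 8, Mir1961 and Mir7k. The mature form of Mir7k is named let-7k, but the gene was not among the 12. Both genes had 0 counts in both libraries, which allows up to 0.651 and 0.724 CPM in replicates 1 and 2.

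Each of let-7a, let-7c and let-7f is encoded by 2 genes whose 5p forms are identical. Their 5p arms are shown with the next 6 bases of the hairpin in capitals, because the copies differ there.
Mirlet7a-1: ugagguaguagguuguauaguuUUAGGG
Mirlet7a-2: ugagguaguagguuguauaguuUAGAGU
Mirlet7c-1: ugagguaguagguuguaugguuUAGAGU
Mirlet7c-2: ugagguaguagguuguaugguuUUGGGC
Mirlet7f-1: ugagguaguagauuguauaguuGUGGGG
Mirlet7f-2: ugagguaguagauuguauaguuUUAGGG

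A read that starts at base 1 of the mature form becomes specific to 1 hairpin of the table at 24 bases for the copies of let-7a and let-7c, and at 23 bases for those of let-7f. For let-7b, let-7d, let-7e, let-7g, let-7i and miR-98, the shortest length examined, 18 bases, was already held by 1 hairpin alone. A read of the full 5p form that starts 1 base earlier is also specific to 1 hairpin for each of the 6 copies. On the 3p arm, Mirlet7a-1 and Mirlet7c-2 encode the same sequence, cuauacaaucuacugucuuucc, which is thus also held by 2 hairpins, whereas every other let-7 3p form in the table is held by 1. Both arms of Mirlet7a-1 and Mirlet7c-2 are therefore shared with another let-7 gene. These counts were made over annotated hairpins, not over the genome.

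Levels are given in CPM, the own-strand counts of a gene scaled to 1000000 own-strand counts of all microRNA genes in that library, which were 4608816 in replicate 1 and 4144385 in replicate 2. Reads with several alignments, 31.8% and 32.6% of all reads in replicates 1 and 2, stood in a separate tally and were given to no gene. How many of them came from let-7 was not recorded. Counts of genes that share a mature form are thus lower limits, while their CPM could move either way, because unassigned reads are missing from the total too. Levels compare assigned reads and not amounts of RNA, and in whole tissue fewer cells of a type and less RNA per cell cannot be told apart.

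The tissue label was checked by marker microRNAs, and all 14 listed for cell types of the limb had counts in both libraries. The cartilage gene Mir140 was at 55579 and 58999 CPM in replicates 1 and 2, Mir196b of the HoxA cluster at 49518 and 54433 CPM, and the epidermal Mir203 at 40413 and 31563 CPM. The lowest of the 14, Mir196a-1 of the Hox clusters, was at 8.25 and 7.96 CPM. The liver marker Mir122 stood at 6.29 and 13.5 CPM, and the heart marker Mir208a at 2.39 and 2.17 CPM. The presence of counts thus did not by itself set the limb markers apart from these. Of 5 brain genes, the 3 Mir124a copies among them, 4 had 0 counts in both libraries, though copies lose reads with several alignments.

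Of the let-7 reads assigned to a gene, most were those of Mirlet7g and Mirlet7i. Reads with several alignments, which the shared forms of let-7a, let-7c and let-7f can give, are missing from the counts below. The 10 genes held 399098 counts in replicate 1 and 355227 in replicate 2, which was 8.66% and 8.57% of all microRNA counts. Every member had at least 10 counts in both libraries, as did 333 of the 1973 genes. Mirlet7g and Mirlet7i together gave 81.5% ± 0.472 (SD, n = 2) of the let-7 counts. From Mirlet7g down to Mirlet7c-2 the counts fell over a range of 371-fold ± 13.7 (SD, n = 2).

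Mirlet7g, which lies in an intron of the chromatin factor gene Wdr82, was at 38915 CPM in replicate 1 and 39447 CPM in replicate 2. It took 45.5% ± 0.766 of the let-7 counts and rank 7 among all genes, between Mir23b (42879 and 46457 CPM) and Mir203. That rank is of the mean, since Mir203 was above Mirlet7g in replicate 1 (40413 CPM) and below it in replicate 2 (31563 CPM). Mirlet7i, which lies in an exon of the transcribed pseudogene D630033A02Rik, was at 31951 and 30125 CPM and took 36.0% ± 1.24 of the let-7 counts. Its rank was 10, between Mir214 (28950 and 33376 CPM) and Mir26b (28311 and 29018 CPM), and the libraries disagreed on the order of Mirlet7i and Mir214. Mirlet7g exceeded Mirlet7i in both libraries, by 1.22-fold and 1.31-fold, with no overlap of their values.

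A middle group was formed by Mirlet7d, Mir98 and Mirlet7b, each the only gene of its mature form. Mirlet7d, whose mature form alone begins with A, was at 7329 and 7724 CPM, rank 29, and lay 4.13-fold ± 0.325 below Mirlet7i. Mir98, the member named outside the let-7 series, was at 3486 and 3287 CPM. Mirlet7b was at 3119 and 3305 CPM. The values of Mir98 and Mirlet7b overlapped, with Mir98 1.12-fold higher in the first library and 0.995 times Mirlet7b in the second, which leaves no order between them beyond the spread. Mirlet7d lay 2.23-fold ± 0.175 above Mir98 without overlap.

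The 5 genes that share a mature form with another locus were the 5 lowest. Mirlet7f-2 led them at 1289 and 1286 CPM, 2.49-fold ± 0.106 below Mirlet7b and 8.75-fold ± 0.259 above the next gene. Mirlet7a-2 was at 144 and 150.1 CPM and Mirlet7a-1 at 132 and 159 CPM, values that overlapped. Mirlet7c-1 was at 121 and 126 CPM, and Mirlet7c-2 was lowest at 108 and 104 CPM. In all, 7 of the 9 neighbouring pairs in the order of levels did not overlap between the libraries, the exceptions being Mir98 with Mirlet7b and Mirlet7a-2 with Mirlet7a-1. The order came from these same values, counting error was left out, and the share of such pairs over all genes was not examined. In replicate 1, the 95% counting interval of Mirlet7c-1 (111 to 131 CPM) overlapped those of Mirlet7a-1 (122 to 143 CPM) and Mirlet7c-2 (98.6 to 118 CPM). In replicate 2 it overlapped neither.

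**Figure D1:**
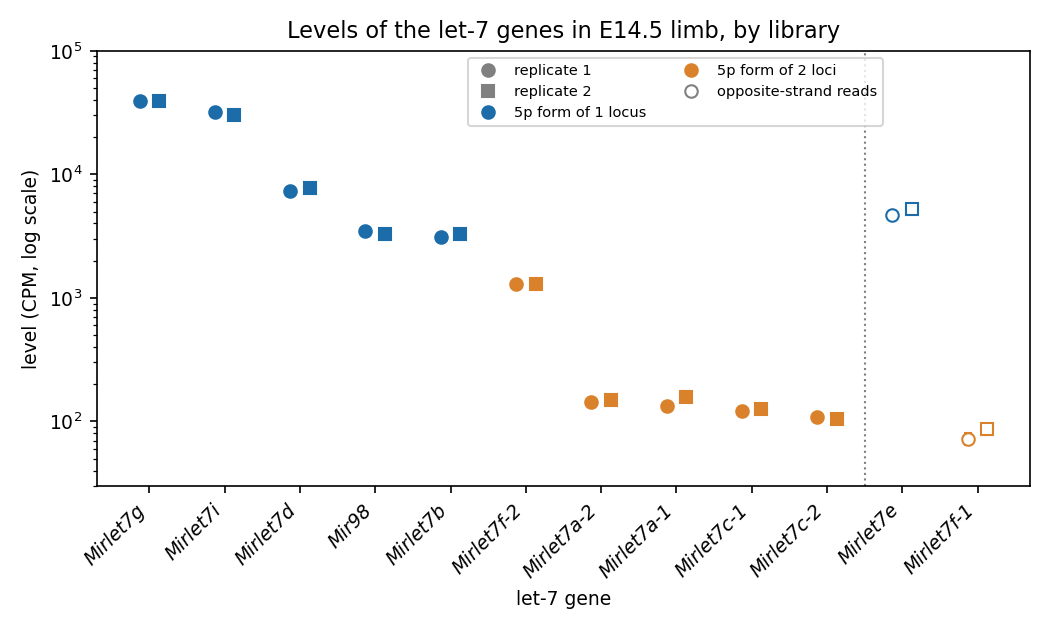
Level of each let-7 gene in CPM (log axis), circles for replicate 1 and squares for replicate 2, with exact 95% Poisson intervals of the counts that are mostly smaller than the symbols. Blue marks genes whose 5p form has 1 locus and orange those whose form has 2 loci, and open symbols are reads opposite to another gene; the 5 blue members lie at 3119 CPM or more and the 5 orange ones at 1289 CPM or less.

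Grouped by mature form, the 5 members with a form of their own gave 97.9% ± 0.0406 (SD, n = 2) of the let-7 counts, and the 5 members with a shared form gave 2.10% ± 0.0406. The first class summed to 84800 and 83888 CPM and the second to 1794 and 1825 CPM. Assigned reads of let-7a, over both of its genes, came to 276 and 309 CPM, or 0.340% ± 0.0293 of the let-7 counts. Those of let-7c came to 229 and 230.2 CPM, or 0.266% ± 0.00316. The part that unassigned reads have in this gap was not tested. No member's values in the shared class reached those of any member in the other class.

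The copies of 1 mature form were then compared with each other. Mirlet7a-2 was 1.09 times Mirlet7a-1 in replicate 1 (exact 95% interval from counting 0.977 to 1.22) and 0.944 times in replicate 2 (0.845 to 1.05). Both intervals held 1, so no difference between the let-7a copies was detectable in the assigned reads. Mirlet7c-1 was 1.12 times Mirlet7c-2 in replicate 1 (0.991 to 1.27) and 1.22 times in replicate 2 (1.07 to 1.39), higher in both libraries but beyond counting error in replicate 2 alone. Reads at Mirlet7f-2 were 17.9 and 14.9 times those at Mirlet7f-1, a ratio of own-strand to opposite-strand counts that also depends on how the latter gene was annotated. These intervals cover counting error only. Reads that fit both copies of a form are in neither count. The 3p form is held by 2 hairpins for Mirlet7a-1 and Mirlet7c-2, but by 1 for Mirlet7a-2 and Mirlet7c-1. The part of unassigned reads in these copy ratios was not tested.

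Mirlet7e and Mirlet7f-1 lie opposite to the annotated genes Gm25927 and Gm24111, and reads on those strands were therefore tallied as opposite-strand reads. At Gm25927, the place of Mirlet7e, there were 21609 and 21568 such reads and 0 own-strand reads in both libraries, or 4689 and 5204 CPM. This would place let-7e, the only other single-locus form of the 12 genes, below Mirlet7d and above Mir98, with no overlap with either. At Gm24111, the place of Mirlet7f-1, there were 332 and 358 opposite-strand reads and again 0 on the own strand, or 72.0 and 86.4 CPM, below every member. Among the members themselves, only Mirlet7b had any opposite-strand reads, 5 and 2. With the reads of both genes added to the let-7 sum and to the library total, the family summed to 90922 and 90524 CPM. The CPM of the single genes above use the own-strand total alone.

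The 12 genes fall into 8 loci, which were compared because neighbouring microRNA hairpins are often cut from 1 transcript. Positions are GRCm38, as GENCODE M21 gives them. Mirlet7g (ENSMUSG00000065440.1) lies alone on chromosome 9 from 106178840 to 106178927 and Mirlet7i (ENSMUSG00000065406.2) alone on chromosome 10 from 122985640 to 122985724. Together the 2 solitary genes held more own-strand let-7 counts than the 6 clustered loci. In those loci, Mirlet7e and Mirlet7f-1 were not among the genes counted, and their reads were tallied opposite to other genes. The let-7a, let-7c and let-7f genes there could lose reads with several alignments. The part of these counting rules in the difference was not tested.

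On chromosome 13, Mirlet7d (48536012 to 48536114), Mirlet7f-1 (48537829 to 48537917) and Mirlet7a-1 (48538179 to 48538272) lie within 2261 bases on the minus strand, in exons of the lincRNA gene 6720427I07Rik. Their reads were very unequal. Mirlet7d was 55.5 and 48.6 times Mirlet7a-1, and Mirlet7a-1 was 1.83 and 1.84 times the opposite-strand reads at Mirlet7f-1. The members of the locus gave 8.91% ± 0.410 of the let-7 counts.

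On chromosome 15, Mirlet7c-2 (85706603 to 85706697) and Mirlet7b (85707319 to 85707403) lie on the plus strand in exons of the noncoding gene Lncppara. Mirlet7b was 28.9 and 31.9 times Mirlet7c-2. On chromosome X, Mirlet7f-2 (151912346 to 151912428) and Mir98 (151913214 to 151913321) lie in an intron of the ubiquitin ligase gene Huwe1. Mir98 was 2.70 and 2.56 times Mirlet7f-2, the smallest gap among members of 1 locus. At all 3 loci the gene with a mature form of its own had more assigned reads in both libraries. The lower genes share their mature form with another locus, so that their counts are lower limits. The part of unassigned reads in these ratios was not tested.

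The other 3 loci pair a let-7 gene with members of the Mir99 or Mir100 and Mir125 families, an arrangement conserved across animals. On chromosome 16, Mirlet7c-1 (77599657 to 77599750) lies in an intron of Mir99ahg, and Mir99a beside it was at 50365 and 49949 CPM, 417 and 395 times Mirlet7c-1. Mir125b-2, at the same host gene, was at 697 and 681 CPM, or 5.77 and 5.39 times Mirlet7c-1. On chromosome 9, Mirlet7a-2 (41536716 to 41536811) lies in an intron of the noncoding gene 3110039I08Rik. There Mir100 was 78.7 and 78.2 times Mirlet7a-2, and Mir125b-1 was 7.98 and 8.78 times it.

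On chromosome 17, Mirlet7e (17830352 to 17830444) lies in an intron of Spaca6 between Mir99b and Mir125a. Mir99b was at 15323 and 17181 CPM and Mir125a at 3815 and 4274 CPM. Mir99b was 3.27 and 3.30 times the opposite-strand reads at Mirlet7e, which in turn were 1.23 and 1.22 times Mir125a. The let-7 gene was the lowest of the 3 genes at the loci of chromosomes 16 and 9, where its mature form is shared, and the middle one on chromosome 17, where it is not. All these ratios kept their direction in both libraries. They compare assigned reads, and the part in them of unassigned reads, of let-7a and let-7c or of the neighbours, was not tested.

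**Figure D2:**
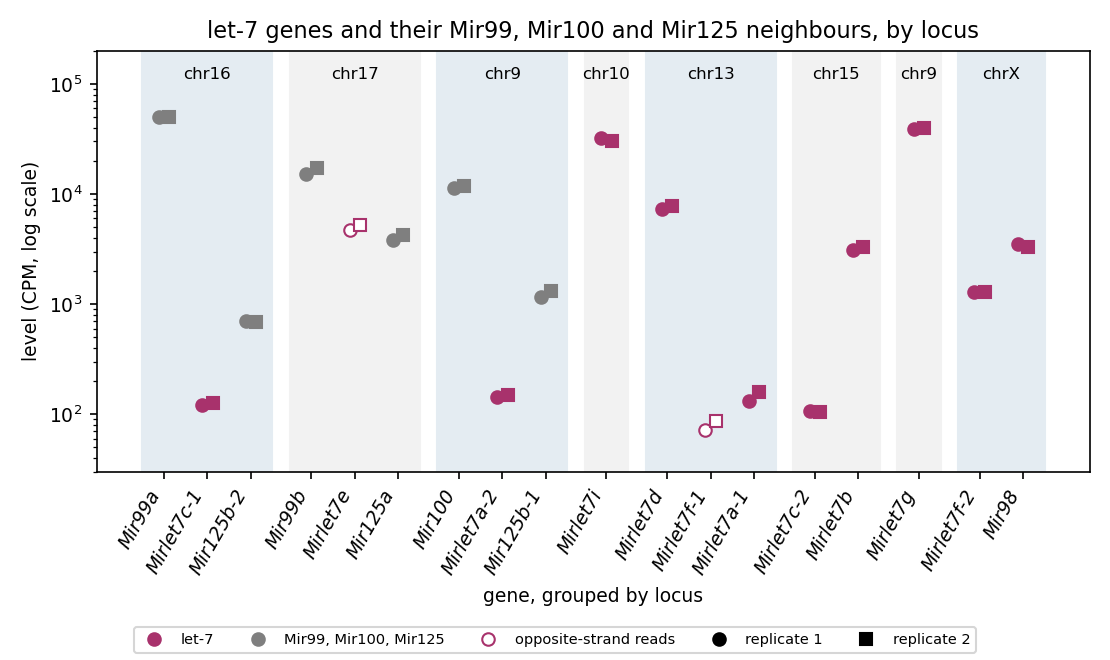
Level in CPM (log axis) of the let-7 genes (magenta) and of their Mir99, Mir100 and Mir125 neighbours (grey), grouped by locus, circles for replicate 1 and squares for replicate 2. The 3 loci with such neighbours are drawn first, and genes within a locus are in order of position. Open symbols are opposite-strand reads; Mirlet7c-1 and Mirlet7a-2 lie far below Mir99a and Mir100 beside them, whereas the reads at Mirlet7e lie between those of Mir99b and Mir125a.

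The stretch between the 5p and 3p arms was examined for the letters GGAG, the motif that Lin28 zinc fingers are known to bind in let-7 precursors. The search was on the RNA strand of the hairpin only, with no overlap with another motif searched. It was found in 9 of the 11 let-7 hairpins examined, or 81.8%, against 8.08% of all 644 hairpins with both arms in the table, let-7 included. The loops are shown for the highest members and for the 2 hairpins in which these letters were not found, with the motif in capitals.
Mirlet7g: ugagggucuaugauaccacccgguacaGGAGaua
Mirlet7i: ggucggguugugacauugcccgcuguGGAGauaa
Mirlet7d: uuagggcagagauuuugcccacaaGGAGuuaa
Mirlet7b: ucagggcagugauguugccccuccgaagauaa
Mirlet7c-2: uugggcucugccccgcucugcgguaa

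Members with the motif ranged from Mirlet7c-1 at 121 and 126 CPM to Mirlet7g at 38915 and 39447 CPM. Of those without it, Mirlet7b was at 3119 and 3305 CPM, within that range, and Mirlet7c-2 at 108 and 104 CPM, below it. A match is a description of the letters and was not tied to any measured binding.

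The libraries were last compared with each other gene by gene, to see how far let-7 levels repeat. Of the 10 members, 6 differed by a two-sided exact binomial test of the reads at an adjusted p under 0.05, where 35.6% of the 407 genes tested did. The lowest count of any member in a library was 430, and of the 275 genes whose counts summed to 100 or more, 53.1% were called, near the members' share. The differences were small. The median absolute log2 ratio of the members was 0.07, against 0.16 over all genes tested and 0.11 over the genes with at least 100 counts. No member differed 2-fold. Of the tested genes, 0.983% both passed an adjusted p under 0.05 and differed at least 2-fold. The test sets the reads of these 2 libraries against counting noise and compares the libraries, not conditions.

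Mirlet7i had a log2 ratio of replicate 2 over replicate 1 of -0.08 and so was lower in replicate 2 (exact 95% interval -0.10 to -0.07, adjusted p = 1.64e-51 by the exact binomial test). Mir98 was lower by the same size (-0.08, interval -0.12 to -0.05, adjusted p = 2.45e-06 by the exact test). Mirlet7a-1 had the largest ratio, 0.27 (0.11 to 0.43, adjusted p = 0.00369 by the exact test), from 609 against 659 counts. Its partner copy Mirlet7a-2 had 0.06 (-0.10 to 0.22), and the difference between the copies was not tested. These 3 were also called with TMM factors and with DESeq2 size factors, at other sizes. The log2 ratios of Mirlet7i and Mir98 were then both -0.15 with TMM factors and -0.16 with DESeq2 size factors. That of Mirlet7a-1 was 0.20 with either, just past the threshold (adjusted p = 0.037 and 0.0499 by the exact test).

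Other calls depended on the scaling. Mirlet7g was higher in replicate 2 by a log2 ratio of 0.02 (adjusted p = 0.00031 by the exact test), but lower with TMM factors (-0.043) and with DESeq2 size factors (-0.052). Mirlet7d (0.08) and Mirlet7b (0.08) were higher, and neither was called with TMM factors (adjusted p = 0.418 and 0.404 by the exact test) or with DESeq2 size factors (0.933 and 0.753). Mirlet7f-2 (-0.004 before, adjusted p = 0.973 by the exact test) was lower with TMM factors at -0.07 and with DESeq2 size factors at -0.08. By library sums, 4 members were called higher and 2 lower in replicate 2, where 19.9% and 15.7% of tested genes were, whereas 1 was called higher and 4 lower with either of the other scalings. Of all tested genes, 11.1% were called higher and 21.1% lower with TMM factors, and 10.3% and 23.6% with DESeq2 size factors. Mirlet7a-2, Mirlet7c-1 and Mirlet7c-2 were not called by any of the 3 scalings. By library sums, Mirlet7c-1 had a log2 ratio of 0.07 (-0.11 to 0.24) and Mirlet7c-2 one of -0.06 (-0.25 to 0.13).

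**Figure D3:**
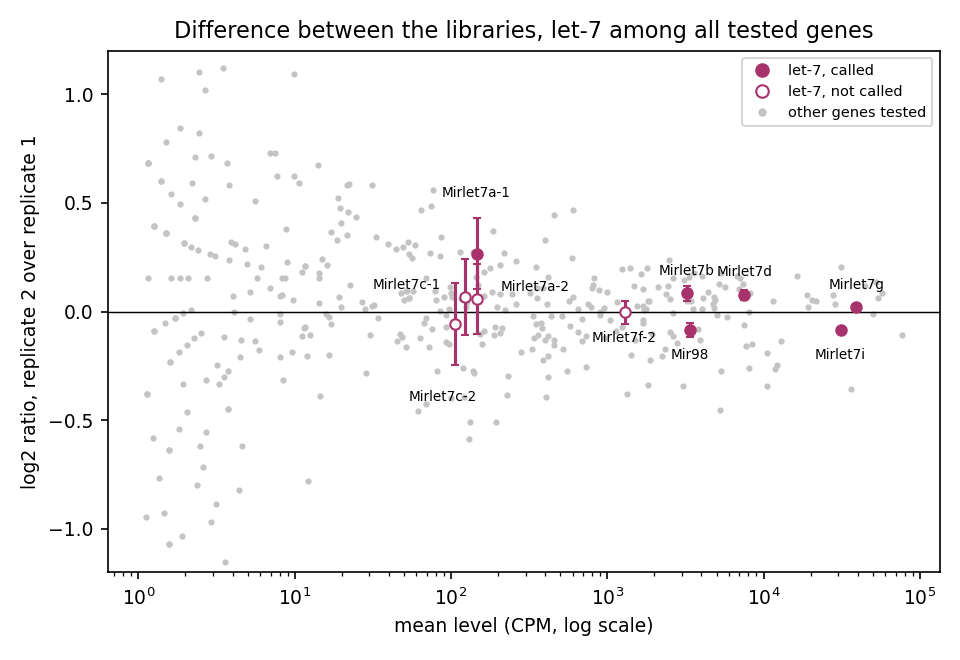
Log2 ratio of replicate 2 over replicate 1 against mean CPM (log axis) for all tested genes with the let-7 members in magenta, where bars are exact 95% intervals from counting, filled symbols passed the binomial test and 8 genes beyond 1.2 on the log2 scale are not drawn. The let-7 genes lie near 0, and Mirlet7a-1 at 0.27 is farthest from it.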

How the data were processed

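MicroRNA sequencing reads of inserts under 30 nucleotides came from 2 limb samples. The deposited tables held raw counts, whole numbers of reads for each gene, which the authors had aligned to mm10 and counted on GENCODE M4, per the deposited read-me texts. The aligner and counter are not given in the sources used here. The 3 count columns had no header and were read from their values as either strand, own strand and opposite strand, the first being the sum of the others in every gene. The 4 tally rows stayed out of library sums. Unmapped reads were 12.8% and 13.7% of all reads in replicates 1 and 2.

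Members were matched by gene identifier to GENCODE M21. A gene was called exonic where it overlapped an exon of another gene on its strand. Mature forms and hairpins came from the RefSeq table of GRCm38.p6, and copies were counted over its hairpins because no genome sequence was used. Loci joined let-7 genes within 10 kb and listed neighbours within 100 kb. Values are mean ± SD over the 2 libraries or both values, and intervals cover counting error only, since reads carried no molecular identifiers. A count of 0 allows up to 3 counts.

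The libraries were compared by a two-sided exact binomial test with Benjamini-Hochberg adjustment over all genes that had 10 or more counts in the 2 libraries together, and 0.5 was added to each count for log2 ratios. A quasi-likelihood test has no residual degrees of freedom here. The libraries were not copies of each other (chi-square 53.7 per degree of freedom). Tests were tried on simulated data. TMM factors came from edgeR 4.0.16 and size factors from DESeq2 1.42.0 in R 4.3.3, with Python 3.11.15, numpy 2.4.6, scipy 1.17.1 and matplotlib 3.10.9. Named genes were the members, the 2 opposite-strand loci, 6 listed neighbours, genes with the seed, and the genes ranked around Mirlet7g and Mirlet7i. The loop of 1 hairpin is not reported here. The members, lists and tests were chosen with earlier results of these data known.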

Additional observations from a re-analysis of the deposited data

Results flagged for a closer look

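Some reads lay outside the own-strand measurement, on the strand opposite to an annotated gene. They exceeded the limit that a count of 0 allows at the places of Mirlet7e and Mirlet7f-1, which were not among the genes counted. At Gm25927, the place of Mirlet7e, they reached 4689 CPM in replicate 1 and 5204 CPM in replicate 2. At Gm24111, the place of Mirlet7f-1, they reached 72.0 CPM in replicate 1 and 86.4 CPM in replicate 2. Own-strand reads of Gm25927 and Gm24111 numbered 0 in both libraries.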

How the results depend on the processing

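The summed let-7 level of 86154 CPM became 83446 CPM with counts on either strand and 52514 CPM with reads of several alignments in the total. It became 90723 CPM with the opposite-strand counts of Mirlet7e and Mirlet7f-1 in both the sum and the total. With TMM or DESeq2 scaling it moved by less than its SD, but that SD rose from 623 to 3246 and 3661 CPM, so how closely the libraries repeat depends on the scaling. The share from mature forms with a single locus, 97.9%, was 94.2% when forms that differ at no more than 1 base were counted as 1, which moved Mirlet7b to the shared class. The log2 ratio of Mirlet7g reversed from 0.02 to -0.043 with TMM factors and to -0.052 with DESeq2 size factors. Under these scalings 5 members in place of 6 differed between the libraries, where 32.2% and 33.9% of all tested genes did, with Mirlet7d and Mirlet7b no longer called and Mirlet7f-2 added (adjusted p = 0.0496 and 0.019 by the exact binomial test). The same 6 members were called with no filter on low counts, with at least 100 counts in total and with counts on either strand, where the share of all tested genes called was 19.8%, 53.1% and 37.2%. Leaving out either replicate leaves the value of 1 library, given in the report, and no spread. The number of assigned reads sets the width of the intervals of the copy ratios. The let-7a copies had 609 to 665 counts in a library, and the interval of their ratio held 1 in both libraries. The let-7c copies had 430 to 557 counts, and the interval held 1 in replicate 1 but not in replicate 2. Reads that fit both copies are in none of these counts.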
